A study of Mus musculus with 21 samples.

Results

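Among the CpG-rich stretches of low methylation in the mouse sperm genome, the 697 described here were covered by the most bisulfite reads per CpG within their range of length. The study compared histones, histone variants and histone marks in sperm and round spermatids, and 1 of its 21 samples was used here; the other 20 samples were not analysed here. That sample holds bisulfite-treated DNA recovered with nucleosomes from the sperm of C57BL/6 mice, untreated as far as the labels say. The sperm were collected by swim-up and their chromatin was cut to single nucleosomes with micrococcal nuclease (MNase). The sources used here give neither the age of the mice nor whether several were pooled. With 1 library there are no biological replicates, so no test between conditions was possible and every value describes this library.

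The regions were found on the autosomes from CpGs with at least 5 reads. A CpG counted as low where the pooled methylation level over it and its 2 neighbours was under 50%, and a region was a run of at least 30 low CpGs with gaps of at most 500 bp. Of 9272 such regions, 7022 were 1000 to under 3000 bp long with at least 30 listed CpGs of up to 19 reads. The 697 regions with a mean of 7 or more reads over these CpGs are described here as the well covered regions (9.93% of the 7022), and the 6325 below 7 as the other regions. The table held 15544856 CpGs with 60995624 CpG reads and a median of 3 reads per CpG, and 23.1% of the CpGs had 5 or more reads. The regions were thus chosen by their coverage and defined by their low methylation, and both are given below as descriptions.

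Most CpGs of mammalian genomes are methylated, while the CpG islands at many gene starts escape methylation. During spermatogenesis most histones are replaced by protamines, and a small part of the genome keeps nucleosomes, CpG islands among it. MNase digests DNA that is not protected by a nucleosome, so the reads of such a library should come mostly from DNA that was still wrapped. The sonicated genomic DNA of the study was not used here, so how far coverage reflects nucleosomes was not tested. In a bulk library, more recovered DNA per cell and more cells that keep a nucleosome at a place cannot be told apart.

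Promoters were assigned by the spacing of their CpGs. A RefSeq promoter (GRCm38.p6, 250 bases before to 50 after the start) was placed where its pattern of at least 6 CpGs fell on the listed CpG positions, with at least 80% of the pattern listed and 0 listed CpGs outside the pattern. It was assigned to a region where the start lay inside it or within 300 bp of its edges. Both cases are called in the region below, so some of these starts lie just outside it. Of 18541 promoters with 6 or more CpGs, 6218 matched on their own chromosome and 0 on any other. The sequences below are the 250 bases before the start of the 6 best covered regions with exactly 1 matched promoter of a protein-coding gene. They show what lies in or next to these regions and how the reads fall on it. They run 5′ to 3′ along the gene in lower case, and capitals mark each CpG with 10 or more reads in sperm.
Hjurp: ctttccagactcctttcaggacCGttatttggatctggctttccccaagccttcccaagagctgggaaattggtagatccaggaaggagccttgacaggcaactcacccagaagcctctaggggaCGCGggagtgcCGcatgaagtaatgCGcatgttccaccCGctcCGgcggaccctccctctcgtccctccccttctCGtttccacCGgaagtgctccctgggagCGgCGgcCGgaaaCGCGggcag
BC048507: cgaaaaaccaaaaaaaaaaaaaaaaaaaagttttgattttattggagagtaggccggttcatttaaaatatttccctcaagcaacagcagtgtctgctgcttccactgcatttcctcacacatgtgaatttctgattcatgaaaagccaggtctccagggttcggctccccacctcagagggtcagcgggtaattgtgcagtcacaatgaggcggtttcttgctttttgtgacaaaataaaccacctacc
D930020B18Rik: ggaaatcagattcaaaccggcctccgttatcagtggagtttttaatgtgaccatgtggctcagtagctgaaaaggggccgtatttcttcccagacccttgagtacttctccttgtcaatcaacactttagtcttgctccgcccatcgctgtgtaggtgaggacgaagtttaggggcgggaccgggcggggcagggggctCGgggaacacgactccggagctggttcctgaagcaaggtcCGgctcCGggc
Ccdc185: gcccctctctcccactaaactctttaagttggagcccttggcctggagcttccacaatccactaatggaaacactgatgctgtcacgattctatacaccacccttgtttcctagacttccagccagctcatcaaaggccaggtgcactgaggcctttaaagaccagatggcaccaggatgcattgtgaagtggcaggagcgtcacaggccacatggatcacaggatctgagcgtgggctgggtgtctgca
Saysd1: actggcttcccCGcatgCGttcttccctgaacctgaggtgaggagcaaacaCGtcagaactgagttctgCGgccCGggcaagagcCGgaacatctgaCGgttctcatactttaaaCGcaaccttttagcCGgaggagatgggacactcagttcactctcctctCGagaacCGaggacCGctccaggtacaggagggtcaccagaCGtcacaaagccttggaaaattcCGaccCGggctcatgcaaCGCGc
Rtraf: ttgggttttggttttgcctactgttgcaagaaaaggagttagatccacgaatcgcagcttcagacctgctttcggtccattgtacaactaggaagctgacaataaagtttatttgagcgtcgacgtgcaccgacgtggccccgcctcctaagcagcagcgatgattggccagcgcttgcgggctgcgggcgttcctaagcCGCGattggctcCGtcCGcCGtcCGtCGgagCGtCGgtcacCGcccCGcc

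On GRCm38.p6 the stretch of Hjurp, the chaperone that deposits the centromeric histone CENP-A, is chr1:88277580-88277829 on the minus strand. All 16 of its CpGs were listed, with 7 to 38 reads and a median of 23.5, and 7 of their 356 reads were methylated (1.97%). In the stretch of Saysd1 (chr14:20083173-20083422, minus strand) all 17 CpGs carried 11 to 20 reads and 2.11% of the reads were methylated. In Hjurp 14 of the 16 CpGs had 10 or more reads and in Saysd1 all 17. The stretch of Rtraf (chr14:19823824-19824073, minus strand), a component of an RNA ligase and transport complex, differed in that its reads gathered at 1 end. There 22 of 25 CpGs were listed with 1 to 19 reads, and the 11 CpGs with 10 or more all lay in the part next to the start.

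The other stretches show regions whose reads lay mostly elsewhere or whose promoter holds few CpGs. For D930020B18Rik (chr10:121641451-121641700, plus strand), 14 CpGs had 4 to 13 reads and 7.41% of the reads were methylated. BC048507 (chr13:67863076-67863325, plus strand) has 5 CpGs in this stretch, 4 of them listed with 5 to 9 reads, and 25.8% of those reads were methylated. Ccdc185 (chr1:182749181-182749430, minus strand) has 3 CpGs there with 4 to 9 reads, at 31.6%. The levels of BC048507 and Ccdc185 rest on few reads, with 8 of 31 and 6 of 19 methylated. These 2 promoters are poor in CpG and partly methylated, unlike those of Hjurp, Saysd1 and Rtraf.

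Coverage of the well covered regions formed the upper tail of 1 distribution and not a group of its own. The median of their mean coverages was 7.54 reads per listed CpG (quartiles 7.21 and 8.05, highest 12.4), against 5.27 in the other regions. Of the 697, 504 lay under 8, 178 from 8 to under 10 and 15 at 10 or more. Just inside the threshold, 12 regions had a mean of exactly 7, among them chr11:115464361-115466408 with the starts of Gga3, an adaptor of Golgi sorting, and Mrps7, a mitochondrial ribosomal protein. The others named there are chr11:85649994-85651949 and chr13:99199898-99200954. Just outside it lay chr3:30691777-30693056 with 6.992 reads, chr16:91596920-91598444 with 6.991 and chr16:97984310-97985757 with 6.990. Regions just inside and just outside 7 were thus nearly the same in coverage.

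**Figure D1:**
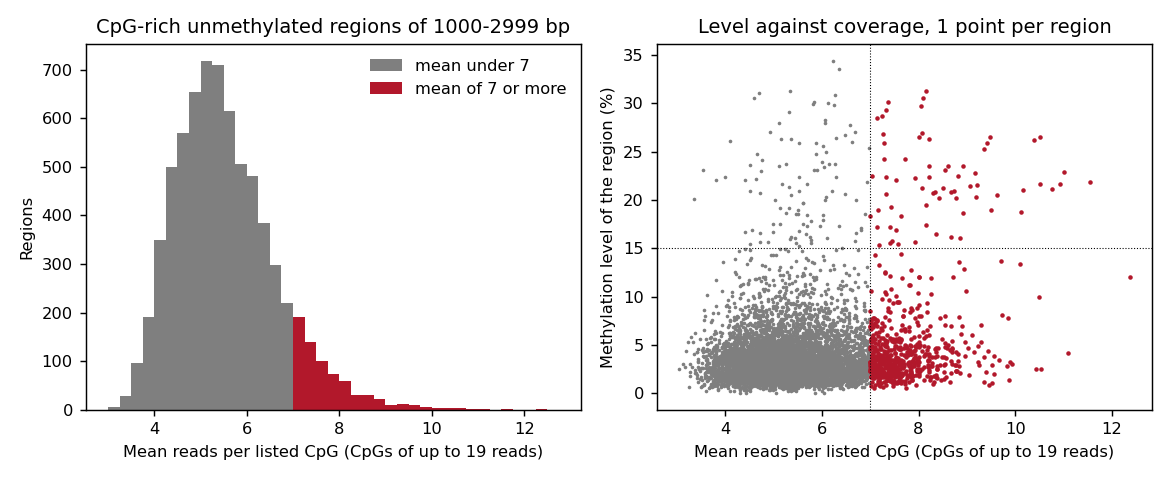
Left, number of regions (y axis) by mean reads per listed CpG (x axis), with the 697 well covered regions in red and the 6325 others in grey. Right, methylation level of each region in percent (y axis) against the same mean (x axis), 1 point per region; dotted lines mark 7 reads and a level of 15%. The red regions continue the grey distribution without a gap, and 69 red points lie above the line at 15%.

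The rule averages the reads of single CpGs, so how these are spread follows from it in part. In the median well covered region 77.5% of the listed CpGs had 5 or more reads and 57.1% had 7 or more, against 54.5% and 29.8% in the other regions. CpGs above 19 reads did not enter the mean, but they share reads with neighbouring CpGs that did. Their frequency is thus tied to the rule as well. These CpGs were more frequent in the well covered regions. They made up 1116 of 65958 listed CpGs (1.69%, 95% Wilson interval 1.60 to 1.79) against 0.584% (0.567 to 0.603) in the others. At least 1 such CpG occurred in 267 of the 697 well covered regions (38.3%) and in 707 of the other regions (11.2%), where all 7022 together give 13.9%. These intervals cover counting error only, and they are too narrow because 1 read is counted at every CpG on it and PCR copies were not marked by molecular identifiers.

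By mean coverage the first region was chr1:90173251-90174957 (mm9, as are all regions below), which holds the start of Hjurp. Its 35 CpGs of up to 19 reads averaged 12.4 ± 4.47 reads (SD over CpGs), and the other 38 of its 73 CpGs (52.1%) had more than 19, up to 50. Its level over all reads was 7.99% (6.72 to 9.47). It was also the region with the highest coverage beside it, 9.34 reads per CpG at 500 to 2000 bp from its edges. The reads were therefore dense in the surroundings of this region as well as inside it.

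The second, chr7:20394048-20395453, had no matched promoter. It averaged 11.6 ± 4.71 reads on 38 CpGs, with 19.6% of all its reads methylated (16.9 to 22.6). Its surroundings were covered by 9.25 reads per CpG. The third, chr14:45478175-45479307, holds the start of the transcript Gm16976 and was nearly unmethylated, averaging 11.1 ± 3.44 reads on 48 CpGs, with 4.20% of all its reads methylated (2.86 to 6.13). Here the CpGs beside it averaged 3.14 reads, so the coverage dropped within a short distance. The first 3 regions thus differed in level and in the coverage of their surroundings.

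**Figure D2:**
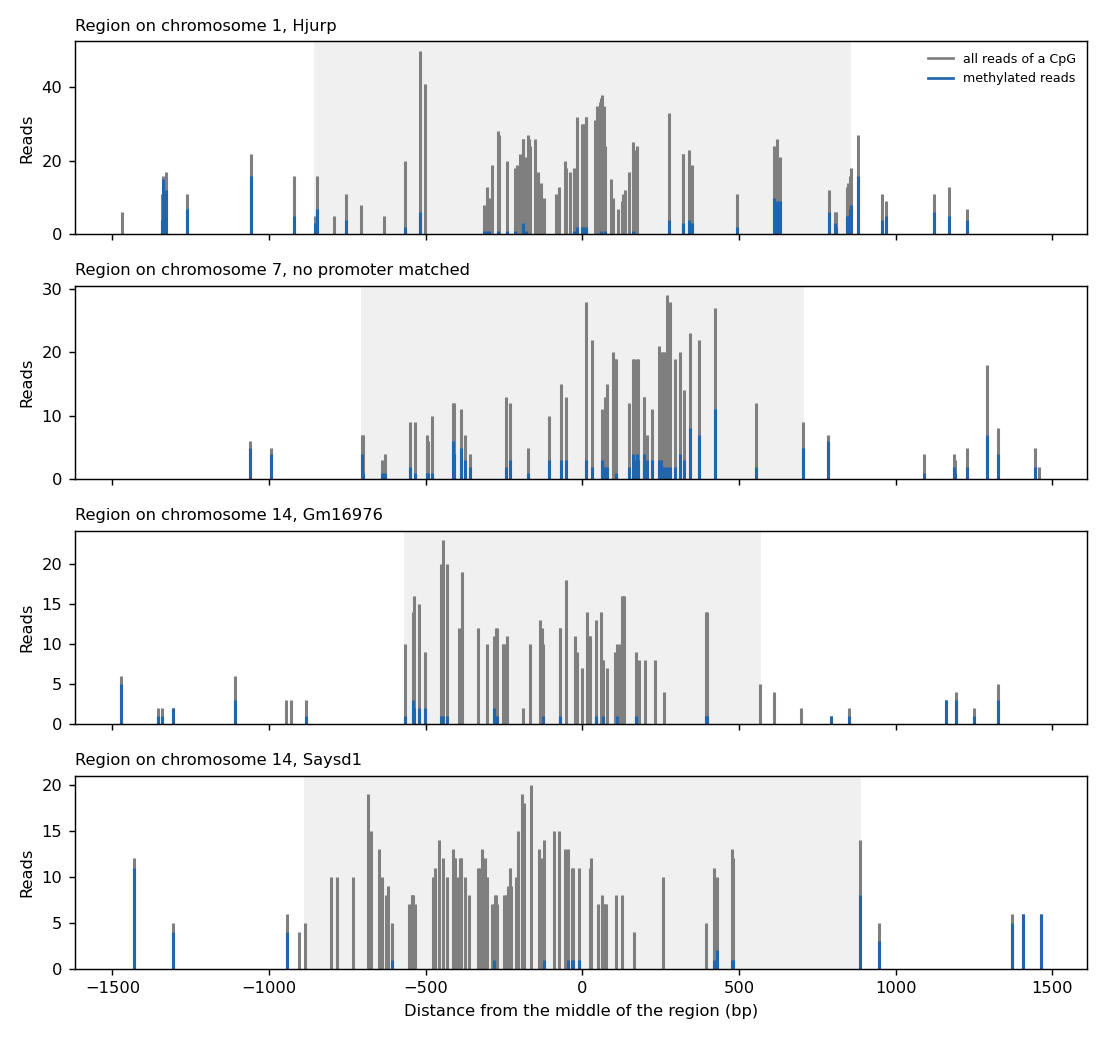
Reads (y axis) at each listed CpG by distance in bp from the middle of the region (x axis) for 4 well covered regions, with all reads in grey and methylated reads in blue; the shaded band is the region. In the Hjurp region single CpGs reach 50 reads and most have few methylated reads, in the unmatched region on chromosome 7 methylated reads are spread over nearly all CpGs, and in the Gm16976 and Saysd1 regions few of the reads inside are methylated.

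Of the 10 regions with the highest means, 6 had levels of 15% or more. Besides the region on chromosome 7 these were chr15:40368733-40370026 (11.0 ± 4.46 reads, level 21.3%), the BC048507 region chr13:67963586-67964785 (10.9 ± 3.84 reads, 21.4%), the LOC115490388 region chr6:3132655-3134173 (10.8 ± 5.04 reads, 18.6%), chr6:136348449-136349768 (10.5 ± 4.82 reads, 24.5%) and the Ccdc185 region chr1:184677414-184679475 (10.5 reads, 20.9%). In the LOC115490388 region 42.1% of the CpGs had more than 19 reads. The remaining pair of the 10 were the D930020B18Rik region chr10:121077960-121080051, with 10.5 ± 4.18 reads on 104 CpGs at 2.50%, and chr19:29049148-29050201, with 10.5 ± 3.86 reads and 10.8%. Partial methylation was thus common at the very top of the order.

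Among the nearly unmethylated regions that follow, many hold the start of a gene with a known role. The Saysd1 region, chr14:20901718-20903489, had 10.4 reads and a level of 2.43%. Emilin2, an extracellular matrix glycoprotein, lay in a region with 9.94 ± 4.46 reads, and Rtraf in one with 9.86 ± 6.15. Mmp24, a membrane-bound matrix metalloproteinase, had 9.67 ± 4.78 reads. These SDs show how unevenly the CpGs of up to 19 reads within a region were covered, and the Rtraf region had the largest by this measure. CpGs above 19 reads are left out of them, so they do not rank regions such as that of Hjurp, where single CpGs reached 50 reads. The region shared by the divergent starts of Gpatch2 and Spata17 had 9.57 ± 3.86 reads. Stil, needed for centriole duplication, had 9.52 ± 3.97 reads at a level of 0.923%, and Rraga, a GTPase of amino acid signalling to mTORC1, 9.39 ± 5.43 at 2.20%. Cct6b, a subunit of the chaperonin found in testis, had 9.28 ± 4.39 at 4.87%.

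The longest well covered regions had coverages of 7.06 to 7.87 reads. Samd5 lay in a region of 2997 bp with 7.12 ± 3.92 reads, Bcr, a GTPase-activating protein, in one of 2976 bp with 7.06 ± 3.86, and Neurog1, a transcription factor of neuron formation, in one of 2963 bp with 7.87 ± 4.10. Their levels were 1.83%, 2.10% and 3.14%. The lowest levels of all were 0.486% (0.189 to 1.24) in the region of Fnbp4, a formin-binding protein, 0.543% (0.212 to 1.39) in that of Eprs, the glutamyl-prolyl-tRNA synthetase, and 0.576% (0.224 to 1.47) in that of Hyls1, a protein of centrioles and cilia. The intervals of these 3 levels overlap, so their order is not resolved.

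Inside the well covered regions coverage was highest in the middle and methylation lowest there. In 10 equal steps along the length, coverage was 6.74 reads per CpG in the first, 8.28 in the fifth and 6.86 in the last. The level was 11.6% in the first step, 2.90% in the fifth and 12.2% in the last. In the other regions coverage was also highest in the middle, at 5.45 reads. It was lowest at 4.88 in the second step, and the ends had 5.23 and 5.28. Every region begins and ends on a CpG of 5 or more reads by the rule, so coverage in the end steps follows from it in part. The level of the other regions was 9.22% and 9.08% at the ends and 2.20% in the fifth step.

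Coverage beside the well covered regions was also higher than beside the others. Inside, pooled over CpGs of up to 19 reads, it was 7.70 reads against 5.26. The rule sets this ratio of 1.46, so a smaller ratio beside the regions follows in part from the selection. CpGs beside the regions did not enter the mean coverage that defines the sets. At 0 to 500 bp the averages were 3.44 and 2.85 reads (ratio 1.21). This window is shaped by the rule, which joins low CpGs of 5 or more reads across gaps of at most 500 bp. Between the steps of 250 bp on either side of 500 bp, coverage rose from 3.43 to 3.95 reads beside the well covered regions. Beside the others it rose from 2.80 to 3.50. Farther out, the averages were 3.84 and 3.50 reads at 500 to 2000 bp (ratio 1.10). At 2000 to 5000 bp they were 3.72 and 3.48 (ratio 1.07). At 5000 to 10000 bp they were 3.61 and 3.47 reads. The difference was thus smaller in each window farther out.

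Only a small number of the well covered regions lay in surroundings that were themselves densely read. With at least 10 listed CpGs at 500 to 2000 bp, 56 of 675 (8.30%) had a mean of 5 reads or more there, against 196 of 6140 other regions (3.19%) and 3.7% of all. After Hjurp and the region on chromosome 7, the third highest was chr8:35217169-35218703 with 8.92 reads beside it and 8.23 ± 4.48 inside. The lowest were chr8:27228694-27230225 with 1.58, chr6:52202235-52204350 with 1.80 and the region of Dcaf10, a substrate receptor of a ubiquitin ligase, with 1.84. The Spearman correlation between coverage inside and beside was 0.147 over 6815 regions and 0.144 over the 675 well covered ones, which all share 1 library. Such weak values are given as a description only.

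**Figure D3:**
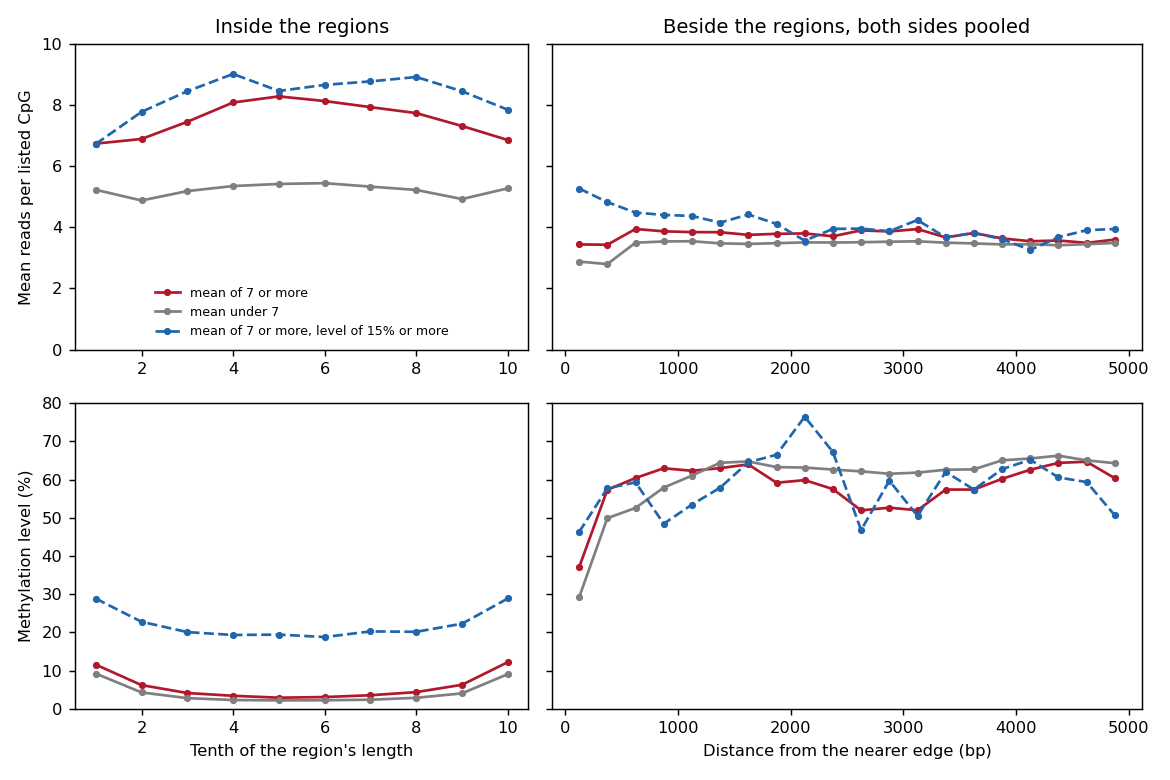
Mean reads per listed CpG (top) and methylation level in percent (bottom) by 10 equal steps along the region (left) and by distance in bp from the nearer edge (right). Red is the well covered regions, grey the others and dashed blue the well covered regions with a level of 15% or more. The red curve peaks at 8.28 reads in the fifth step and comes close to the grey one outside, while the blue level stays between 18.8% and 28.9% inside.

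A matched promoter lay in or within 300 bp of most of the well covered regions, but less often than for the other regions. With chromosome 18 left out, because the promoter table holds none there, 374 of 662 (56.5%) held at least 1 matched promoter, against 4087 of 6130 other regions (66.7%) and 65.7% of all. Promoters in both directions were matched in 70 (10.6%) and 858 (14.0%). In all, 444 genes with 513 promoters lay in well covered regions, 375 of them protein-coding and 69 (15.5%) long noncoding RNA genes, the latter at 12.8% in the other regions. Of the CpGs of matched promoters 98.6% were listed in the well covered regions and 96.7% in the others. A region without a match may still hold a promoter with fewer than 6 CpGs or a start that RefSeq does not list.

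Coverage around the starts was not symmetric. Over 280 starts of protein-coding genes in well covered regions with promoters in 1 direction, coverage was 4.33 reads per CpG at -1000 to -951 bp from the start, 6.15 at -250 to -201 bp and 7.28 in the last 50 bp before it. It rose to 7.97 in the first 50 bp after the start, reached 8.96 at 150 to 199 bp and was 7.70 at 450 to 499 bp. The level fell from 36.2% at the far upstream end to 1.86% at 150 to 199 bp after the start. The 3055 starts in the other regions peaked in the same window, at 5.83 reads and a level of 1.80%.

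Start by start, coverage was higher in the 500 bp after than in the 500 bp before in 206 of 261 well covered regions (78.9%). The share was 2048 of 2953 (69.4%) in the others and 70.1% in all. The medians were 8.25 reads after and 6.49 before the start, with a median difference of 1.77 (quartiles 0.391 and 3.40). In the other regions they were 5.44 and 4.50, with a median difference of 0.902. Most starts of both sets thus had more coverage on the transcribed side. The middle of the region lay after the start in 188 of 238 nearly unmethylated well covered regions, by a median of 199 bp over the 238. In the other regions under 5% this held for 1924 of 2663, with a median of 177 bp.

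**Figure D4:**
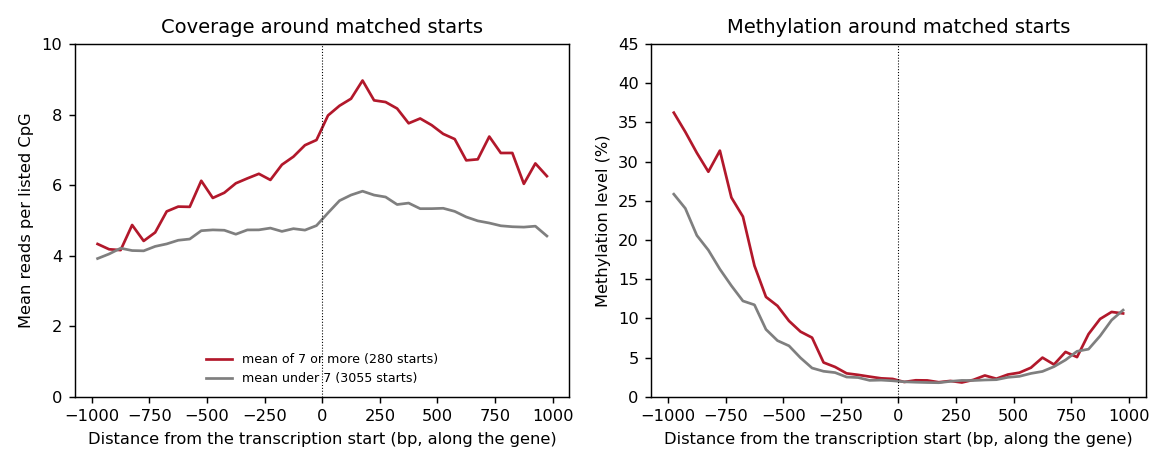
Mean reads per listed CpG (left) and methylation level in percent (right) in 50 bp steps by distance from the transcription start in bp along the gene (x axis), for 280 starts in well covered regions (red) and 3055 in the others (grey); the dotted line is the start. Both curves of coverage rise across the start and peak at 150 to 199 bp after it, at 8.96 and 5.83 reads.

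The genes found this way included several groups with shared names. These groups were formed after the gene names had been seen, so their counts are descriptions, and 8.27% of all 5372 genes with a matched promoter lay in well covered regions. Of 63 genes named Cfap, Tekt, Ttll, Ift, Bbs, Ccdc, Cep or Spata, names given to many genes of cilia, flagella and centrosomes, 19 were in well covered regions (30.2%). The symbols Ccdc and Spata also name genes of other functions. Cfap69, a flagellar protein, had 8.41 ± 3.48 reads, Ttll3, a tubulin glycylase, 8.18 ± 2.89, Bbs5, of the BBSome complex of cilia, 7.68 ± 4.63 and Tekt1, a tektin of flagellar microtubules, 7.40 ± 3.42.

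Developmental transcription factors were the next group, with 12 of 63 genes: Ascl2, Atoh7, Bhlhe23, Dmrta1, Gata5, Gbx2, Hoxd3, Neurog1, Nkx2-9, Prrx2, Six2 and Tbx20. All of them belong to families that specify tissues in the embryo. Six2, of the kidney progenitors, had 7.43 ± 3.46 reads over 188 CpGs at a level of 2.15%, Gbx2, of the midbrain and hindbrain border, 7.30 ± 4.25 over 212 CpGs at 4.39% and Hoxd3 7.11 ± 3.48 over 72 CpGs at 2.15%. Gata5 had 7.13 ± 3.64 reads and Tbx20, of heart development, 7.06 ± 3.12. Over all 12 the mean coverage ranged from 7.06 in Tbx20 to 7.94 in Dmrta1.

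Some housekeeping families were represented and others were not. Of 10 aminoacyl-tRNA synthetases, which load amino acids on tRNAs, 5 were in well covered regions (50%). Nars2 had 8.34 ± 3.86 reads, Yars2 8.29 ± 3.89, Tarsl2 7.81 ± 3.84, Gars 7.20 ± 3.91 and Eprs 7.08 ± 3.12, all at levels between 0.543% and 4.56%. In contrast, 0 of 26 cytoplasmic ribosomal protein genes were in well covered regions. Mitochondrial ribosomal proteins contributed 2 of 24 (Mrpl22 and Mrps7) and proteasome subunits 2 of 16 (Psmd1 and Psmd6). The share was 7 of 69 (10.1%) among zinc finger genes named Zfp, 8 of 82 (9.76%) among solute carriers, 3 of 25 among potassium channels and 4 of 6 among sialyltransferases. Most of these shares are near 8.27%, and with so few genes a list the counts of the small families say little. Germ cell genes outside the lists were present too, such as Utf1, a chromatin protein of pluripotent and germline stem cells, with 7.85 ± 3.55 reads, and Tcfl5, a transcription factor of spermatocytes and spermatids, with 7.70 ± 4.46.

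The promoters differed somewhat in their letters. The 513 promoters in well covered regions had a median G and C content of 62.3% and 23 CpGs in 300 bases, those in the other regions 65.7% and 27 CpGs, and all 32851 RefSeq promoters had 52.7% and 7 CpGs. The 6 motifs below were searched on both strands. GGGCGG, the letters of the GC box, was in 62.8% of the promoters in well covered regions, 74.9% of those in the others and 35.7% of all. CCAAT was in 31.2%, 33.5% and 37.4%, and TATAAA in 4.68%, 4.78% and 13.6%. The promoters in well covered regions were thus less rich in G and C and in the GC box than those in the other regions.

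CCGGAAG, the core of ETS factor sites, was in 17.3%, 17.8% and 8.86% in the same order. CACGTG, the E-box, was in 10.9%, 10.4% and 7.15%. TGACGT, from the cAMP response element, was in 13.6%, 12.8% and 7.51%. Each motif was counted alone, and a window may hold several of them. A match says only that the letters are present.

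The well covered regions had fewer listed CpGs per length than the others. The median was 5.49 listed CpGs per 100 bp (quartiles 4.31 and 7.08, range 2.01 to 16.0) against 6.35, with a median length of 1534 bp against 1617 bp and 90 listed CpGs per region against 102. With the 7022 regions divided by density into 4 sets of equal size, the share of well covered regions was 15.7% (276 of 1756) in the sparsest, 9.69% (170), 7.69% (135) and 6.61% (116) in the densest. By length it was 11.1% at 1000 to under 1500 bp, 9.92%, 7.93% and 8.10% in the following steps of 500 bp. The share was 17.8% (286 of 1604) in CpG-rich regions under 1000 bp and 5.98% (38 of 635) in those of 3000 bp or more. A region was found only where at least 30 of its CpGs had 5 or more reads, so sparse or short regions enter only where they are well covered, and the part of this in the differences was not tested.

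**Figure D5:**
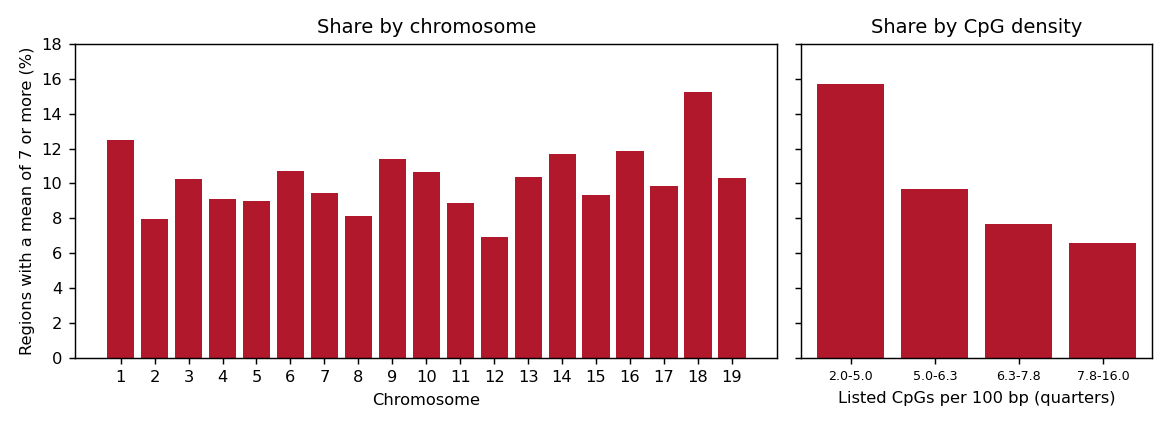
Share of regions with a mean of 7 or more reads in percent (y axis, from 0) by chromosome (left) and by listed CpGs per 100 bp in 4 sets of equal size (right). The bars range from 6.92% on chromosome 12 to 15.2% on chromosome 18, and fall from 15.7% in the sparsest set to 6.61% in the densest.

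Methylation was low in most of the well covered regions and intermediate in a minority. Pooled over the CpGs of up to 19 reads the level was 4.81% (4.75 to 4.87) against 3.52% (3.51 to 3.54) in the other regions, with medians over regions of 3.59% and 3.01%. With a running level under 20% in place of 50% the pooled levels were 2.28% and 2.19%, so the difference depends on that setting. Under 5% were 478 of the 697 (68.6%) and 5024 of the others (79.4%), with 78.4% of all 7022. From 5% to under 15% were 150 (21.5%) and 1196 (18.9%). At 15% or more were 69 (9.90%) and 105 (1.66%), with 2.48% of all. These classes were set after the levels had been seen. The setting of 20% leaves 0 regions at 15% or more in either set, since such regions are then no longer found.

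In the 69 well covered regions of 15% or more, single CpGs had a wide range of levels. Their pooled level was 21.5% (21.1 to 22.0), and of their 1399 CpGs with 10 to 19 reads 21.8% had a level under 10%, 25.4% from 10% to under 20%, 52.4% from 20% to under 60%, and 1 CpG lay above 80%. In the 478 regions under 5%, 92.1% of 14920 such CpGs had a level under 10%. The rule admits only runs of CpGs with a running level under 50%, so it leaves almost no room for CpGs above 80%. Averaged over the 69 regions, the level stayed between 18.8% and 28.9% along the length.

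The 69 regions differed from the rest in other measures as well. They had a median of 8.22 reads, 3.67 listed CpGs per 100 bp, 51 listed CpGs and 1439 bp. Of their CpGs 3.28% had more than 19 reads, against 0.0812% in the 105 other regions of such a level. The CpGs beside the 69 regions averaged 5.07 reads at 0 to 500 bp and 4.33 at 500 to 2000 bp. At 500 to 2000 bp the well covered regions of 5% to under 15% averaged 3.91, and those under 5% averaged 3.73. The medians over regions there were closer, at 3.59, 3.58 and 3.41 reads in the same order. The upper quartiles were 4.50, 4.15 and 4.08. With at least 10 listed CpGs there, 10 of 65 (15.4%) of the 69 regions had 5 reads or more, against 10% and 6.74%. The 105 other regions of such a level were also sparse, with quartiles of 3.12 and 5.12 listed CpGs per 100 bp.

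Few of these 69 regions were at a matched promoter. Outside chromosome 18 a promoter was matched in 8 of 58 (13.8%), against 297 of 461 (64.4%) of the well covered regions under 5% and 48.3% of those between. In the other regions the shares were 17.2%, 70.5% and 54.7% in the same order. The match needs 6 CpGs in the promoter, which regions of low density offer less often. The middle of the region lay after the start in 5 of 7 of them, and the promoters held a median of 9 CpGs against 23.5 in the regions under 5%.

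At these starts lay 9 genes, 5 of them protein-coding. Ccin, the sperm head protein calicin, lay in the region with the highest level, chr4:43996346-43997927, with 31.3% (27.7 to 35.1) and 8.16 ± 3.80 reads. D1Pas1, a DEAD-box RNA helicase of male germ cells, lay in chr1:188790832-188792336 with 16.5% (14.1 to 19.1) and 8.36 ± 3.51 reads. Dcdc2c had 20.9% (17.7 to 24.5) and 8.51 ± 3.53 reads. Ccdc185 and BC048507 are described above, and the remaining starts are the noncoding LOC115490388, Gm36402, Gm31138 and 4930433N12Rik, the last 2 in 1 region. The next highest levels, 30.6% at chr9:110195742-110197745 and 30.1% at chr1:79994238-79995907, were in regions without a match.

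Well covered regions occurred on every autosome, with shares from 6.92% (20 of 289) on chromosome 12 to 15.2% (35 of 230) on chromosome 18. On chromosome 18, 11 of the 35 had a level of 15% or more, from 15.8% to 29.7% with 7.28 to 10.2 reads, and 8 of these lay between 37 and 38 Mb. That stretch held 22 regions in all, 9 of them well covered, and 18 of the 22 had a level of 15% or more. Of the 697, 30 (4.30%) had another well covered region within 10 kb, against 103 of the other regions (1.63%), and the median distance to the nearest CpG-rich region was 51125 bp against 50055 bp for the others. Within 1 Mb of the first listed CpG of a chromosome lay 69 regions, and 19 of them (27.5%) were well covered, against 9.93% of all 7022.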

How the data were processed

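The deposited table, 1 line per CpG, holds counts of all and of methylated reads per CpG, raw and without normalization per the file headers. Bowtie and mm9 are named per the submitters' processing notes; trimming, duplicates and conversion are not stated in the sources used here. CpGs without reads are not listed (the smallest count is 1), and 0 entries had more methylated than total reads. Regions were found as the report states, on 19 autosomes. Levels are methylated over all reads, with 95% Wilson intervals. Regions named are the 10 with the highest coverage, the 3 longest and the 3 at each end of level, of share above 19 reads, of coverage beside and of the threshold; genes named beside these were picked by known roles. The planned gene assignment needed an mm9 annotation, which was not used here, so the match of CpG spacing took its place after the data had been seen. It is a match of sequences to positions, not a conversion of coordinates. Members, lists and classes were chosen with earlier results of these data known. Scripts were tested on simulated data. Python 3.11.15, numpy 2.4.6, pandas 2.3.3, scipy 1.17.1, numba 0.67.0 and matplotlib 3.10.9 were used. Alternatives were other read minimums, levels, gaps, limits on high coverage, medians, thresholds, windows beside and promoter CpG minimums.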

Additional observations from a re-analysis of the deposited data

How the results depend on the processing

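No paired analysis was possible because there is 1 library, and no replicate could be left out. The number of regions has no interval, so a value within 1.5-fold of the reported number was counted as the same. Of 43 alternative values, 16 stayed within this limit or, for the other results, within the interval of the reported value, and 27 moved. The cause was not tested. A turn of direction was defined only for the ratio of coverage beside, and it occurred in 0 of the alternatives of that ratio. Against 697 well covered regions, 5.49 listed CpGs per 100 bp, a level of 4.81%, 1.69% of CpGs above 19 reads and 3.84 reads beside, a minimum of 10 reads gave 262 regions, 7.92, 3.36%, 2.04% and 4.46. A running level under 20% gave 6.63, 2.28%, 1.51% and 3.98, and a largest gap of 200 bp 6.87, 3.71%, 1.57% and 4.35. Without the limit of 19 reads the density was 5.93, the level 4.25% and the share 3.44%. With the median in place of the mean the level was 4.94% and the share 1.42%. A threshold of 8 reads gave 193 regions, 4.74, 6.96%, 3.01% and 4.11, with a ratio beside of 1.17 in place of 1.10. At 2000 to 5000 bp coverage beside was 3.72. Further alternatives were added after the data were seen: promoters with 10 or more CpGs were matched in 52.3% of the well covered regions, and without regions of 15% or more the level was 3.67%. The share of the other regions matched with 10 or more CpGs was not computed. The other regions' level was 2.33%, 2.19%, 2.79%, 3.52%, 3.50% and 3.57% in these 6 settings of the rule. The share of well covered regions at 15% or more, 9.90% as reported, was 4.20% with a minimum of 10 reads, 5.91% with a gap of 200 bp and 22.8% with a threshold of 8. In the other regions it was 1.66% as reported, and 0%, 0.951% and 1.90% in the same order. Without the limit of 19 reads the shares were 7.50% and 1.71%, and with the median 9.96% and 1.59%. In each of the 6 settings of the rule the well covered regions had fewer listed CpGs per 100 bp than the others. The median depth of 3 reads limits single CpGs. Pooled levels have less counting error, but that of the well covered regions moved in each of the 6 settings of the rule.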
